A study of Mus musculus with 48 samples.

Results

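Transplanted and primary mouse sarcomas were compared after the same single radiation dose. The comparison took every tumour labelled as irradiated with 20 Gy and given the isotype antibody, which made 12 of the 48 tumours in the series, 8 primary and 4 allograft, and it ran across all genes. Primary tumours arose in the gastrocnemius, a calf muscle, of p53FL/FL mice on the 129/SvJae background, 6 to 10 weeks old at the start. Adeno-Cre, an adenovirus that carries the Cre recombinase, was injected there to delete the floxed p53 alleles of the cells it infected, and 300 µg of MCA (3-methylcholanthrene, a chemical carcinogen) followed. Allografts grew after 50000 cells of line 402230 were injected in Matrigel into the same muscle of syngeneic mice, so all 4 stem from a single cell line, while each primary tumour arose on its own. Both kinds were treated at about 150 mm3 with 200 µg of isotype control antibody and then 20 Gy to the whole left hind limb, and were harvested on day 3. The same design without irradiation (0 Gy with isotype) and with 20 Gy and the anti-PD-1 antibody muDX400 gave 12 further tumours each, again 8 primary and 4 allograft. Their allografts came from the same line. What the comparison measures is therefore the difference between many independent tumours and a single transplanted line at one time after radiation, with each tumour taken as a mixture of malignant cells, host immune cells and muscle. Transplantation and the properties of that line cannot be told apart.

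As background, a soft-tissue sarcoma is a cancer of mesenchymal cells, and ionising radiation kills tumour cells largely through DNA breaks. A primary tumour of this model develops beside an intact immune system, whereas a transplanted line expands from cells that were grown in culture. Such lines can keep the expression state of the tumour they came from, including which copy of an imprinted gene is silent. An imprinted gene is one expressed from the copy of a single parent. NRF2 is a transcription factor that switches on enzymes for glutathione synthesis, quinone reduction and NADPH supply.

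The 12 libraries held 31.8 to 53.3 M counts (M, 1e6), and total counts, the mitochondrial share, the share of Gm42418, whose locus contains ribosomal RNA repeats, and the share of the 100 most counted genes did not pass an exact 2-sided permutation test between the kinds (raw p = 0.19 to 0.78, 4 measures). Counts of whole-gene Trp53, the gene that Cre deletes, ran from 23.8 to 62.7 CPM (counts per 1e6 counts, TMM-scaled) in the primary tumours and from 39.7 to 43.4 CPM in the allografts (log2 fold change, primary over allograft, -0.21, SE 0.24); the deleted exons cannot be separated in gene counts, and host cells carry intact copies where Cre was not active, so the labels are not checked by this value. Primary tumours varied more. The median gene had an SD of 0.372 on the log2(CPM + 0.5) scale among the 8 primary tumours and of 0.23 among the 4 allografts, and the SD was larger in the primary tumours for 79% of 17624 genes. Muscle content differed between tumours of both kinds: Myh4, a fast-fibre myosin, stood at 2.75 to 15020 CPM in the primary tumours and at 10.5 to 2493 CPM in the allografts. The labels name no animal sex, and Xist, the RNA of the inactive X chromosome, was above 80 CPM in 3 allografts and 2 primary tumours and below 3 CPM in the others (log2 fold change 0.09, SE 2.04). Nothing in the labels says more of how the replicates were raised than that each is a separate tumour sample.

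Windows at the gene start were searched for short motifs of 2 response elements, in NRF2-list genes called here and in Mmp13. Some are shown because the same genes are described together in the next paragraphs. A match of letters does not show that a protein binds there. RefSeq windows of 300 bases (GRCm38.p6) existed for 6 of the 8 NRF2-list genes called here and for Mmp13. They were searched on both strands for TGACNNNGC, the core of the antioxidant response element that NRF2 binds, and for TGACTCA, the AP-1 element. These 2 motifs can share their first 4 letters. A match is in capitals, and each sequence is written 5′ to 3′ on the strand of its gene.
Gclm, chr3:122245307-122245606, forward strand: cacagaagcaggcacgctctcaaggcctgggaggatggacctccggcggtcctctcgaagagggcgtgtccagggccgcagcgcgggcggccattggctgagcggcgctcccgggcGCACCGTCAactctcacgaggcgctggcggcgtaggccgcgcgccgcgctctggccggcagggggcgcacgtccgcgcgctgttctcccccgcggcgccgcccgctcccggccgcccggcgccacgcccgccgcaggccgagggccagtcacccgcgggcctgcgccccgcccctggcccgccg
Txnrd1, chr10:82858956-82859255, forward strand: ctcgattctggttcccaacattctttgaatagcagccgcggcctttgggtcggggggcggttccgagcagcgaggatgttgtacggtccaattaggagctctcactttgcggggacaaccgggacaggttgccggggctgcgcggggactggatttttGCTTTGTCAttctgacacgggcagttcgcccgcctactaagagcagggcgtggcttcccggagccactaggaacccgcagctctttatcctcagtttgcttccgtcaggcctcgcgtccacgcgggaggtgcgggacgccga
G6pdx, chrX:74428831-74429130, reverse strand: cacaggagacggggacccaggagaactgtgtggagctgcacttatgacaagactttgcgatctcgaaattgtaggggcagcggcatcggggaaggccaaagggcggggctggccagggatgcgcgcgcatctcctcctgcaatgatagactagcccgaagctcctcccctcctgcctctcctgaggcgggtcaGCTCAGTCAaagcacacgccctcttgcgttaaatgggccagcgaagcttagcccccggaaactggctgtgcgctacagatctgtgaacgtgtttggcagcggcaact
Mmp13, chr9:7272264-7272563, forward strand: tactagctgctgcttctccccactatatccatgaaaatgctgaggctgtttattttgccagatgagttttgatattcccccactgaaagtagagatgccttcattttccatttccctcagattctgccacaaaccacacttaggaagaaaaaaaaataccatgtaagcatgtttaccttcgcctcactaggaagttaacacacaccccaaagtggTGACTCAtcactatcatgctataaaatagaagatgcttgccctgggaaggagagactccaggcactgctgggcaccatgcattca
TGACNNNGC matched 4 of the 9 windows of the NRF2-list genes, in Gclm, Txnrd1, G6pdx and Pgd, and 12.4% of all 32851 windows of the same length. TGACTCA matched the Mmp13 window and 5.2% of all windows. No window of Nqo1 or Slc7a11 held TGACNNNGC, which says only that these letters are not in those 300 bases.

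Across the genome, 839 of 17624 genes tested (4.76%) differed between irradiated primary tumours and irradiated allografts at an adjusted p below 0.05 (edgeR's quasi-likelihood test with Benjamini-Hochberg adjustment), and such genes are termed called. In primary tumours 416 of them were higher (2.36% of genes tested) and 423 lower (2.4%), and 635 differed more than 2-fold. The CPM ranges of the kinds did not overlap for 1003 genes (5.69%), with primary tumours higher for 407 (2.31%) and lower for 596 (3.38%). Genes named for a small p were chosen in this comparison, so a lack of overlap among them adds no support. The median log2 fold change of all genes, primary over allograft, was 0.05, and 55.7% of genes lay above 0. An unadjusted p below 0.05 was reached by 3508 of the 17624 genes. List counts from other fits belong beside the totals of those fits. DESeq2, another test on counts, called 1112 genes higher and 763 lower. Without primary replicate 8, edgeR called 603 higher and 547 lower of 17499 genes. The 4 allografts weigh heavily on the count: it was 502, 364, 447 and 260 without allograft replicates 1, 2, 3 and 4 in turn, against 655 to 1150 without a single primary tumour. It was 399 without the 3 primary tumours with more Myh4 than any allograft (replicates 1, 4 and 6). The lowest adjusted p belonged to Nqo1, which was lower in primary tumours, and the highest ranked genes in the other direction were Sgce, Gdf15, Rian and Mirg.

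**Figure D1:**
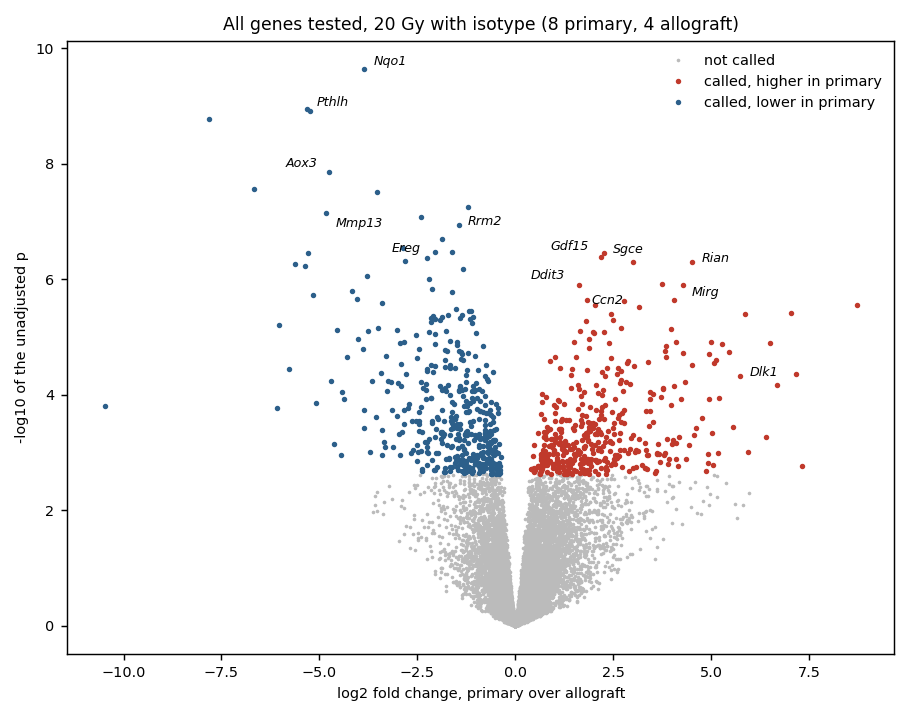
Each of the 17624 genes tested by its log2 fold change, primary over allograft, and by minus log10 of the unadjusted p, with genes called at an adjusted p below 0.05 in colour. The 416 genes higher and 423 genes lower in primary tumours are close in number, and Nqo1 has the smallest p.

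Genes of glutathione and NADPH metabolism from the NRF2 list were lower in primary tumours where they were called. Like the other lists, this one was chosen with earlier results of these data known. Of 16 genes of the NRF2 list tested, 8 were called lower and 0 higher, beside 2.4% of all genes called lower, and 4 of the 16 had a log2 fold change above 0. The list median was -0.70. Nqo1, a quinone reductase (chr8:107388225-107403206 on GRCm38), measured 160, 85.9, 79.0 and 107.4 CPM in the allografts. In the primary tumours it ran from 5.16 through a median of 6.98 to 10.4 CPM. All 8 primary tumours lay below all 4 allografts, and the log2 fold change was -3.85 (SE 0.22, adjusted p = 3.97e-06, edgeR), a 14.4-fold difference. Slc7a11, the transporter that imports cystine for glutathione, stood at 51.4, 32.4, 26.8 and 61.9 CPM in the allografts and at 5.83 to 14.5 CPM in the primary tumours (median 9.11). Its log2 fold change was -2.09 (SE 0.28, adjusted p = 0.00148, edgeR), and the groups did not overlap. Gclc, the catalytic subunit of the enzyme that starts glutathione synthesis, was lower by a log2 fold change of -1.20 (SE 0.18, adjusted p = 0.00315, edgeR), from 71.8 to 94.3 CPM in the allografts against 23.5 to 58.0 CPM in the primary tumours. Its regulatory subunit Gclm, whose promoter is printed above, was lower in 7 of 8 primary tumours than in any allograft, with a log2 fold change of -0.69 (SE 0.17, adjusted p = 0.0387, edgeR). The eighth primary tumour, at 50.5 CPM, lay just above the lowest allograft at 49.4 CPM.

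The other called genes of the list were Txnrd1, G6pdx, Pgd and Gsta4. Txnrd1, a thioredoxin reductase, had a log2 fold change of -1.13 (SE 0.15), and its primary tumours (106.9 to 187 CPM) lay below the allografts (283 to 376 CPM). G6pdx and Pgd, the dehydrogenases of the pentose phosphate pathway, had log2 fold changes of -0.78 (SE 0.13) and -0.64 (SE 0.15), and neither overlapped between the kinds. Gsta4, a glutathione transferase, was at 22.6 to 47.8 CPM in the allografts and at 1.42 to 16.5 CPM in the primary tumours, a log2 fold change of -2.30 (SE 0.51). Hmox1, the heme oxygenase that NRF2 also induces, was not called: 122.4 to 181.6 CPM in the allografts, 71.1 to 267.5 CPM in the primary tumours, and a log2 fold change of 0.15 with a 95% confidence interval of -0.67 to 0.96. The calls of Gclm, Pgd and Gsta4 were lost in 15, 9 and 5 of 24 alternative fits, among them each fit without an allograft for Gclm. Without allograft 2 or without allograft 4 the list held 5 calls.

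Pthlh, Ereg and Dll1 were among the 12 leading genes that were lower in primary tumours. Pthlh, the parathyroid hormone-related peptide (chr6:147252101-147264183), measured 117.1, 72.9, 84.0 and 108.6 CPM in the allografts. In 7 primary tumours it lay between 2.35 and 2.83 CPM and in replicate 8 at 0.471 CPM. The log2 fold change was -5.30 (SE 0.34, adjusted p = 7.13e-06, edgeR), or 39.5-fold, with no overlap. Ereg, the EGF-family ligand epiregulin, was at 105.8 to 207 CPM in the allografts and 27.7 to 56.2 CPM in the primary tumours, and Dll1, a Notch ligand, at 28.1 to 41.6 against 6.65 to 12.3 CPM. Both were called and neither overlapped (log2 fold changes -2.04, SE 0.21, and -1.86, SE 0.19).

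Mmp13, a collagenase (chr9:7272514-7283331; promoter above), measured 708, 138.9, 472 and 272 CPM in the allografts and 8.34 to 31.3 CPM in the primary tumours, with a median of 11.1 CPM. Its log2 fold change was -4.82 (SE 0.44, adjusted p = 0.000137, edgeR). The spread among the allografts was wide, but the lowest of them was still above the highest primary tumour. Of 18 matrix protease and inhibitor genes tested, 4 were called lower and 0 higher, beside 2.4% and 2.36% of all genes, and 7 lay above 0. The 4 were Mmp13, the stromelysin Mmp10, the plasminogen activator Plau and its receptor Plaur. Mmp10 stood at 631, 135.1, 89.0 and 238 CPM in the allografts against 0.292 to 29.2 CPM in the primary tumours (log2 fold change -5.09, SE 0.95, adjusted p = 0.0102, edgeR). Plau was at 363 to 526 CPM in the allografts and 78.7 to 215 CPM in the primary tumours (-1.43, SE 0.22), and Plaur had a log2 fold change of -1.10 (SE 0.20). The gelatinase Mmp2 and the inhibitor Timp1 were not called, at log2 fold changes of -0.78 (95% confidence interval -1.61 to 0.06) and 0.73 (0.18 to 1.29). Mmp9, another gelatinase, was at 72.9 to 392.3 against 45.1 to 538.9 CPM (-0.05, 95% confidence interval -1.42 to 1.32). The median of the 18 genes was -0.26, and -0.45 without primary replicate 4. DESeq2 called 2 genes of the list higher and 4 lower, and 1 was called higher with limma-voom, with Xist or muscle as a covariate and without allograft 3. Timp1 was called by DESeq2 (adjusted p = 0.04) and with Xist as a covariate in edgeR.

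Genes of TGF-beta and BMP signalling were also lower where they were called: 5 of 17 tested, with 0 higher, beside 2.4% and 2.36% of all genes. Of the 17, 8 had a log2 fold change above 0. The list median was -0.26, and 0.016 without allograft 2. DESeq2 called 7 lower and 1 higher, and edgeR called 2, 3, 2 and 1 lower without allografts 1, 2, 3 and 4 in turn. Inhba, which encodes a subunit of activin, was at 194, 216, 256 and 324 CPM in the allografts and at a median of 85 CPM, always below the allografts, in the primary tumours (log2 fold change -1.43, SE 0.25, adjusted p = 0.00757, edgeR). Fst, the activin antagonist follistatin, was lower with it (-1.90, SE 0.41), from 68.4 to 182 CPM in the allografts against 5.88 to 42.1 CPM. The ligands Tgfb1 and Bmp4 had log2 fold changes of -0.57 (SE 0.13) and -2.05 (SE 0.45), and the receptor Tgfbr1 of -0.87 (SE 0.21). The call of Bmp4 was lost when any allograft was left out, that of Tgfb1 without allografts 1, 2 or 4, that of Tgfbr1 without allografts 1, 3 or 4 or primary tumours 3, 5 or 7, and that of Fst without allograft 3 or 4. In the WNT and FGF list 1 of 22 genes was called lower, beside 2.4% of all genes, and DESeq2 called 1 higher and 3 lower. The edgeR call was Fgf7, a fibroblast growth factor for epithelium (74.3 to 107.9 CPM in the allografts, 40 to 64.7 CPM in the primary tumours, log2 fold change -0.84, SE 0.15); its call was lost without allograft 4. Wnt5a, of the same list, had a log2 fold change of -0.90 (SE 0.26, adjusted p = 0.0659, edgeR) although the groups did not overlap.

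Other leading genes that were lower in primary tumours have unrelated roles. Rrm2, the ribonucleotide reductase subunit needed for DNA synthesis, was at 147, 135.8, 123.7 and 134.7 CPM in the allografts and at 32.1 to 56.2 CPM in the primary tumours (log2 fold change -1.43, SE 0.14, adjusted p = 0.000181, edgeR). It was the single called member of the 20 cell-cycle genes tested, beside 2.4% of all genes called lower. The list median was -0.34 and 1 of the 20 lay above 0. The list held 3 calls with Xist as a covariate and 3 without primary replicate 8, where the median was -0.51. Mki67, a proliferation marker, had a log2 fold change of -0.52 (95% confidence interval -1.04 to -0.01, adjusted p = 0.246, edgeR), and Top2a, a DNA topoisomerase of dividing cells, of -0.61 (SE 0.30, adjusted p = 0.284, edgeR). Aox3 (an aldehyde oxidase), Rnf183 (a ubiquitin ligase), Klhl5, Fam89a, Rapgef3 (a cAMP-regulated exchange factor) and Arnt2 (a bHLH-PAS transcription factor) completed the 12 lower genes with the smallest p. Their log2 fold changes were -4.77, -3.52, -1.20, -2.86, -1.61 and -2.24. None overlapped between the kinds, beside 5.69% of all genes without overlap, but they were chosen by p in this comparison.

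**Figure D2:**
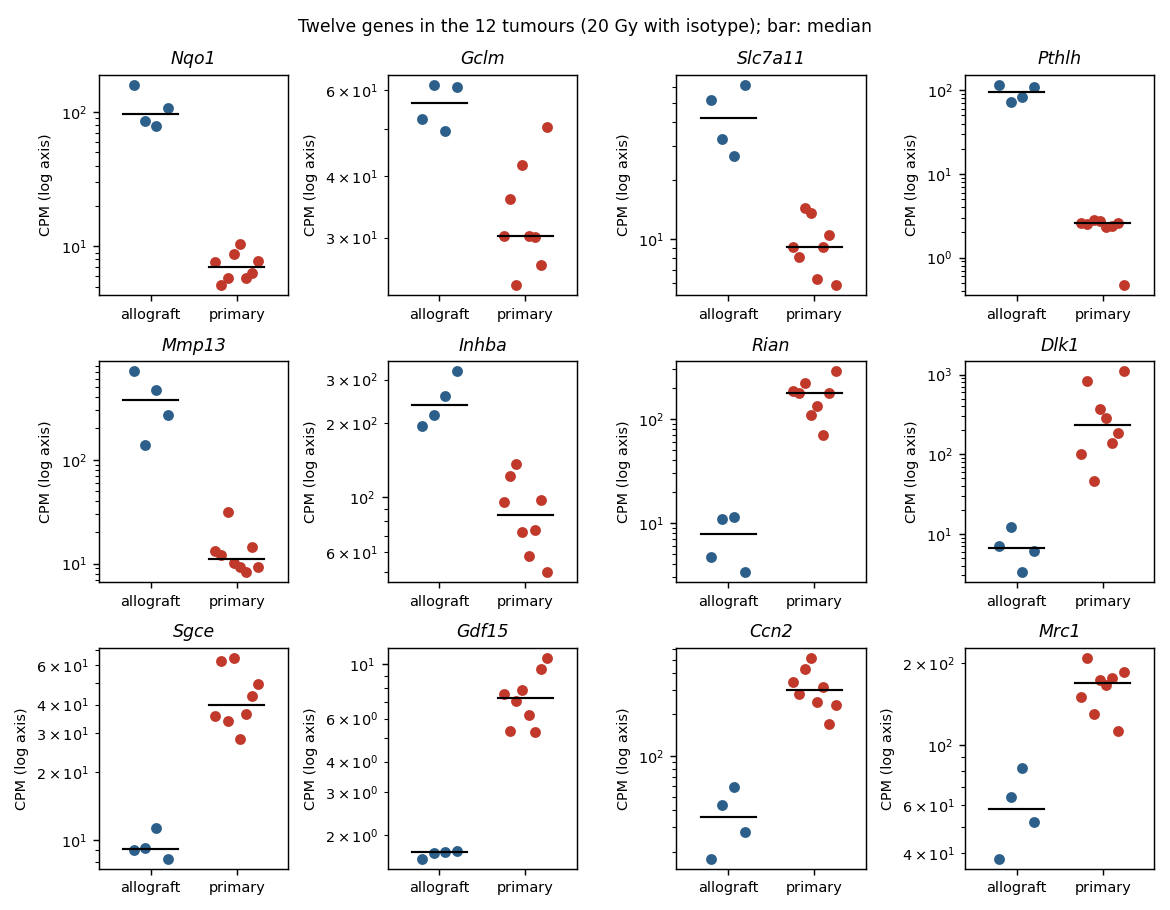
CPM on a log axis for 12 genes in the 4 allografts (blue) and the 8 primary tumours (red), with a bar at the median. Gclm is the single gene of these 12 in which the groups overlap, and Dlk1 has the widest spread among primary tumours, 46.4 to 1098 CPM.

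Several imprinted genes were called higher in primary tumours, in a list whose members were chosen with earlier results of these data known. Of 21 tested, 9 were called higher and 1 lower, beside 2.36% and 2.4% of all genes, and the median was 0.84. The median was 0.57 to 1.48 over the alternatives, the highest without allograft 3. Of the 9, 5 belong to a single cluster on chromosome 12, which holds the paternally expressed Dlk1 and Rtl1 and the maternally expressed non-coding RNAs Meg3, Rian and Mirg. Rian (chr12:109603940-109661716) measured 4.73, 10.96, 11.3 and 3.38 CPM in the allografts and 70.3 to 286 CPM in the primary tumours, with a median of 177 CPM. Its log2 fold change was 4.52 (SE 0.49, adjusted p = 0.000404, edgeR). Meg3 was at 2.76 to 23.8 CPM in the allografts and 95.05 to 314 CPM in the primary tumours (4.29, SE 0.65), and Mirg at 0.155 to 0.834 against 3.88 to 12.7 CPM (4.27, SE 0.50). The 3 non-coding RNAs thus differed by similar factors. Dlk1, a surface ligand of the Notch family, stood at 6.96, 12.2, 3.33 and 6.17 CPM in the allografts and at 46.4 to 1098 CPM in the primary tumours, with a median of 235 CPM (log2 fold change 5.75, SE 0.96, adjusted p = 0.00528, edgeR, or 53.8-fold). Rtl1, a retrotransposon-derived gene, was below 1 CPM in every tumour, at 0 to 0.0516 CPM in the allografts and 0.141 to 0.75 CPM in the primary tumours. It overlaps a microRNA gene on the opposite strand, and whether counting used strand is not given in the sources used here.

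The neighbouring genes were measured too. Within 1 Mb on either side of the segment from Dlk1 to Mirg, 20 tested genes lay outside it. Beside 4.76% of all genes, 1 of these was called, Begain, a brain-enriched gene near Dlk1 (1.54 to 2.75 CPM in the allografts, 4.68 to 27.2 CPM in the primary tumours; log2 fold change 2.27, SE 0.46, adjusted p = 0.0153, edgeR), a call lost without allograft 1 or 4. Inside the segment Dlk1, Meg3, Rian and Mirg had log2 fold changes from 4.27 to 5.75. Rtl1 and the microRNA gene it overlaps passed the expression filter through the primary tumours alone, so their calls add no support, and Rtl1 is 1 of the 9 called imprinted genes. Dio3, the imprinted deiodinase gene at the far end of the cluster, was not called (-0.65, 95% confidence interval -2.54 to 1.25), nor were Yy1 and Hsp90aa1 beyond the cluster (0.04 and 0.02). Begain, Dio3, Yy1 and Hsp90aa1 were chosen after their values were seen.

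**Figure D3:**
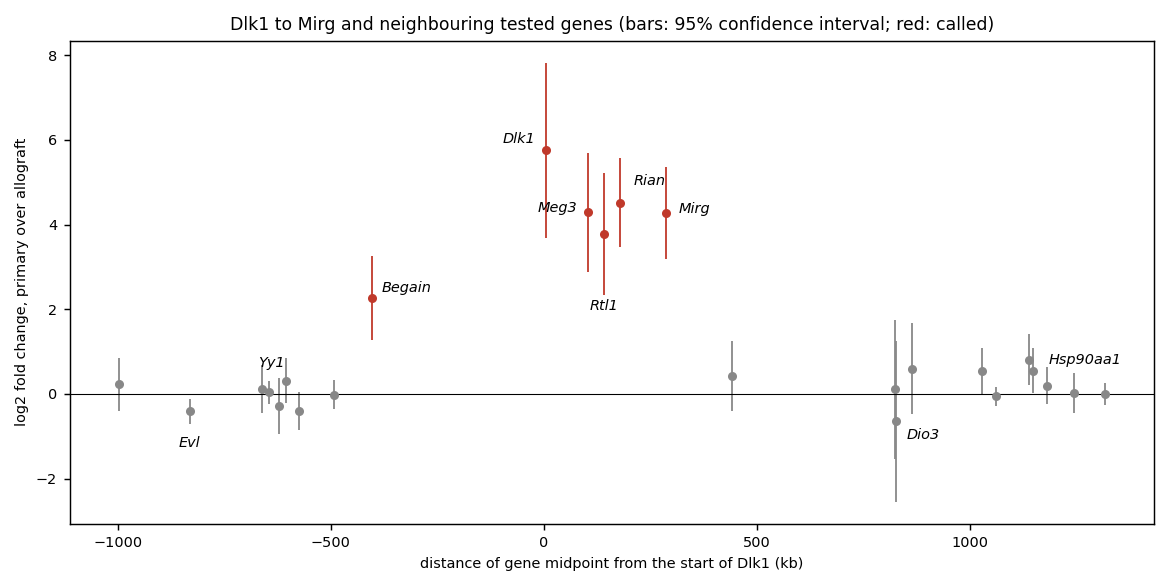
Log2 fold change, primary over allograft, with its 95% confidence interval, for tested genes within 1 Mb of the segment from Dlk1 to Mirg, against the distance of the gene's midpoint from the start of Dlk1 in kb (called genes in red; a microRNA inside Rtl1 is not drawn). The genes from Dlk1 to Mirg lie between 3.78 and 5.75, Begain at 2.27, and the neighbours around 0.

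A second imprinted pair lies on chromosome 6. Sgce, a sarcoglycan of the muscle membrane complex (chr6:4674350-4747207), measured 9.06, 9.27, 11.3 and 8.26 CPM in the allografts and 28.2 to 64.3 CPM in the primary tumours (log2 fold change 2.27, SE 0.24, adjusted p = 0.000364, edgeR). It had the smallest p of the genes that were higher. Peg10, its paternally expressed neighbour, was at 6.05 to 11.01 against 15.3 to 258 CPM (3.42, SE 0.71). Of 14 tested genes outside the pair and within 1 Mb, 2 were called, beside 4.76% of all genes: Tfpi2, a protease inhibitor gene (1.81, SE 0.36), and Gm43921 (2.85, SE 0.45), which overlaps Col1a2. Gm43921 averaged 0.133 CPM in the allografts and 0.942 CPM in the primary tumours. It passed the expression filter only through the primary tumours, where it is high, so its call adds no support. Ppp1r9a beyond Peg10 was at 1.89 (SE 0.54, adjusted p = 0.0653, edgeR), and Casd1 next to Sgce at -0.10 (95% confidence interval -0.45 to 0.24). In the first 10 Mb of chromosome 6, 82.6% of 23 genes of at least 5 CPM were higher in primary tumours, 4 of them called higher and 0 lower, with a median of 0.28. Of all genes tested, whatever their CPM, 55.7% were above 0, 2.36% called higher and 2.4% lower. That median ranked 3 of 209 windows of 10 Mb. At 0 Gy the median was 0.13 (rank 39) and with anti-PD-1 0.12 (rank 34). On chromosome 7, Ndn was higher in primary tumours (5.45 to 12.4 against 14.9 to 138.1 CPM, 2.78, SE 0.57) and so was the long non-coding RNA Kcnq1ot1 (1.56, SE 0.41), whereas Peg3 was lower (-2.38, SE 0.62). The calls of Kcnq1ot1 and Peg3 were lost in 16 and 15 of 24 alternative fits, and those of Peg10 and Ndn in 6 and 3. Igf2, a growth factor gene of the imprinted list, was at 0.82 to 7.29 against 2.49 to 8.65 CPM (0.40, 95% confidence interval -0.73 to 1.53). Peg10, Kcnq1ot1, Peg3, Tfpi2, Gm43921, Ppp1r9a, Casd1 and, in the NRF2 list, Pgd were named after their values were seen.

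Other leading genes that were higher in primary tumours have varied roles. Gdf15, a secreted stress factor and p53 target (chr8:70629393-70632456), measured 1.602, 1.69, 1.71 and 1.73 CPM in the allografts and 5.29 to 10.6 CPM in the primary tumours (log2 fold change 2.19, SE 0.23, adjusted p = 0.000397, edgeR). It was the single called gene of 20 p53 targets tested, beside 2.36% of all genes called higher, and the list median was 0.23. With muscle as a covariate 2 were called. Cdkn1a (p21) was at 169 to 220 CPM in the allografts and 173 to 271 CPM in the primary tumours, and Mdm2 at 63.6 to 89.9 against 72.7 to 85.2 CPM. Their log2 fold changes were 0.19 (95% confidence interval -0.13 to 0.52) and 0.21 (-0.03 to 0.44). Ddit3 (CHOP), a transcription factor of the unfolded protein response, was at 11.3 to 19.8 CPM in the allografts and 35.9 to 61.8 CPM in the primary tumours (1.64, SE 0.19). Ccn2, a matrix-associated growth factor and YAP target, was at 17.7, 43.4, 58.7 and 27.7 CPM in the allografts and 170 to 513 CPM in the primary tumours (3.15, SE 0.40, adjusted p = 0.00128, edgeR). The LIM protein gene Csrp2 and Gas2, which encodes a cytoskeletal linker, had log2 fold changes of 1.83 (SE 0.23) and 1.80 (SE 0.24), and Tlcd2 and Fez1 of 2.03 (SE 0.26) and 2.45 (SE 0.32). None of these 4, chosen by p in this comparison, overlapped between the kinds, beside 5.69% of all genes without overlap.

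Several developmental transcription factors were called, in both directions. Irx2, a homeobox gene, was below 0.35 CPM in every allograft and at 4.58 to 53.5 CPM in the primary tumours (log2 fold change 7.05, SE 0.92, adjusted p = 0.00146, edgeR). Emx2, another homeobox gene, was at 0.42 to 2.09 against 9.18 to 43.7 CPM (3.97, SE 0.55). Sox2, a stem-cell transcription factor, went the other way, with 48.8, 33.1, 36.5 and 51.5 CPM in the allografts and 0.0473 to 2.77 CPM in the primary tumours (-5.78, SE 0.94, adjusted p = 0.00458, edgeR). Dmrta2 was at 11.3 to 16.2 CPM in the allografts and 0.0549 to 3.16 CPM in the primary tumours (-4.41, SE 0.79). Of 21 homeobox and developmental genes tested, 1 was called higher (Emx2) and 3 lower (Sox2, Dmrta2 and Msx1), beside 2.36% and 2.4% of all genes. DESeq2 called 4 higher and 7 lower, where it called 1112 and 763 of all 17624 genes. Without primary replicate 8, edgeR called 7 lower, beside 547 of 17499 genes. Msx1 had a log2 fold change of -2.12 (SE 0.44), and its call was lost without allograft 1 or 4. Dlx1 was lower in 7 of 8 primary tumours than in any allograft, but replicate 8 held 15.4 CPM against 5.37 to 8.81 CPM in the allografts, and the gene was not called (log2 fold change -1.77, adjusted p = 0.491, edgeR). Without that tumour its log2 fold change was -4.94 and it was called, as it was with DESeq2 and limma-voom on all 12 tumours. In the Hox list 2 of 24 were called lower, beside 2.4% of all genes: Hoxa13 and Hoxd8 (-2.26, SE 0.53, and -1.23, SE 0.31), and each lost its call when any allograft was left out. Without primary replicate 8 the list held 4 calls. Hoxa9 (0.19, 95% confidence interval -0.61 to 0.99) and Hoxc10 (0.95, -0.48 to 2.38) overlapped between the kinds. Dlx2, the neighbour of Dlx1, was at 6.36 to 10.15 CPM in the allografts and 0.781 to 28.3 CPM in the primary tumours (-0.69, 95% confidence interval -2.45 to 1.08). Without primary replicate 8, the highest, it was at -1.94 and called, and DESeq2 called it on all 12 tumours. Twist2, a mesenchymal transcription factor, was the single called gene of 17 in the fibroblast list (at least 111.5 CPM in every allograft, 20.5 to 78.4 CPM in the primary tumours, -1.41, SE 0.29), and Pdgfra, a receptor that marks fibroblasts, lay at 0.02 (95% confidence interval -0.84 to 0.87). That single call stands beside 2.4% of all genes called lower, and DESeq2 called 3 higher and 2 lower in the list. The call of Twist2 was lost without allografts 1, 2 or 4.

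Cdkn2a was higher in primary tumours. The gene, which encodes the inhibitors p16 and p19 (chr4:89274471-89294653), measured 257, 189, 152 and 199 CPM in the allografts and 343 to 885 CPM in the primary tumours, with a median of 497 CPM. Its log2 fold change was 1.45 (SE 0.23, adjusted p = 0.00459, edgeR), and all 8 primary tumours lay above all allografts. Its neighbour Cdkn2b (p15) was called too, with 21.1 to 33.6 against 34.3 to 98.6 CPM (1.07, SE 0.25), a call lost in 8 of 24 alternative fits, among them those without allografts 2, 3 or 4. Cdkn2c (p18), on the same chromosome, was lower, at 58.5 to 84.3 against 30.8 to 57.8 CPM (-0.89, SE 0.17), a call lost in 4 fits, among them that without allograft 4. Cdk4, the kinase these inhibitors bind, was called higher by 0.66 (SE 0.17), with overlapping groups and a call lost in 15 of 24 alternative fits. Of 20 CDK inhibitors, tumour suppressors and oncogenes tested, 3 were called higher and 1 lower, beside 2.36% and 2.4% of all genes, and without allografts 2, 3 or 4 a single one was higher. DESeq2 called 5 higher and 1 lower.

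A few macrophage genes were higher in primary tumours. The list of 20 monocyte and macrophage genes held 3 called higher and 0 lower, beside 2.36% and 2.4% of all genes, with a median of -0.09, so most of its members did not pass. The 3 were Mrc1 and Folr2, markers of tissue-resident macrophages, and Trem2, a lipid-sensing receptor. Mrc1 (chr2:14229392-14332057), which encodes the mannose receptor CD206, measured 38.1, 64.4, 82.3 and 51.9 CPM in the allografts and 112.8 to 208 CPM in the primary tumours (log2 fold change 1.503, SE 0.22, adjusted p = 0.00252, edgeR). Folr2 was at 15.2 to 33.8 against 42.1 to 105.4 CPM (1.64, SE 0.29) and Trem2 at 8.70 to 12.9 against 15.2 to 69.8 CPM (1.86, SE 0.41). Lyve1, a hyaluronan receptor of lymphatic endothelium and of some macrophages, was the single called gene of 20 in the endothelial list (1.45 to 4.501 against 4.56 to 43.7 CPM, 2.78, SE 0.54), beside 2.36% of all genes called higher. DESeq2 called 2 higher and 1 lower in that list, and the call of Lyve1 was lost among tumours whose identifier starts with 4. The pan-macrophage genes Adgre1 (F4/80) and Csf1r were not called, with log2 fold changes of -0.08 (95% confidence interval -0.52 to 0.36) and -0.53 (-1.09 to 0.03). In bulk samples, fewer cells of a type and less RNA per cell cannot be told apart. The call of Trem2 was lost when any allograft was left out, and that of Mrc1 when all 48 tumours entered the fit.

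Of the interferon and antigen-presentation genes tested after irradiation, Ido1 was the single one called. In the type I interferon list 0 of 20 genes were called by edgeR, DESeq2 or limma-voom, 0 had an unadjusted p below 0.05, and the median of 0.07 was close to that of all genes. Isg15 stood at 772, 326, 257 and 334 CPM in the allografts and at 170 to 824 CPM in the primary tumours (log2 fold change 0.26, 95% confidence interval -0.56 to 1.08), and Ifit1 and Ifit3 overlapped likewise (0.38 and 0.23), as did Irf7, a regulator of interferon genes (-0.15, 95% confidence interval -0.59 to 0.28). In the interferon gamma and MHC class I list all 20 genes had a log2 fold change below 0, with a median of -0.47, while 1 was called, beside 2.4% of all genes called lower, and 5 had an unadjusted p below 0.05. Of all 17624 genes tested, 3508 had an unadjusted p below 0.05. The called count was 2 with DESeq2 or limma-voom and 6 without primary replicate 5. The called gene was Ido1, a tryptophan-degrading enzyme induced by interferon gamma, at 12.1, 10.6, 20.3 and 21.4 CPM in the allografts and 0.11 to 2.04 CPM in the primary tumours (-4.29, SE 0.66, adjusted p = 0.00352, edgeR). Gbp2 (451 to 687 against 205 to 486 CPM) had a log2 fold change of -0.86 and an adjusted p of 0.0538 (edgeR). Cxcl9, Irf1 and Cd274 (PD-L1) had log2 fold changes of -0.53, -0.60 and -0.56, each with an adjusted p above the threshold (0.24 to 0.565, edgeR).

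No MHC class II or lymphocyte gene was called by edgeR. In the class II list 0 of 10 genes were called, 1 was above 0 and the median was -0.80. H2-Aa measured 1635, 1594, 2387 and 1575 CPM in the allografts and 105.8 to 2126 CPM in the primary tumours, where 7 of 8 lay below all allografts (log2 fold change -1.11, 95% confidence interval -2.48 to 0.25), and Cd74 behaved alike (-1.26, SE 0.56). In the T and NK cell list 0 of 20 were called, with a median of -0.45, or -0.84 without primary replicate 5. Cd8a, of the CD8 coreceptor, was at 13.1, 15.7, 26.4 and 22.4 CPM in the allografts and 0.875 to 12.1 CPM in the primary tumours; the groups did not overlap, but the adjusted p was 0.0683 (edgeR, log2 fold change -1.81, SE 0.53). Cd3e (-1.09), the granzyme gene Gzmb (-0.80) and Cd4 (0.63) overlapped between the kinds. Pdcd1, the gene of PD-1, ran from 6.85 to 12.9 CPM in the allografts and from 0.695 to 14.3 CPM in the primary tumours (-0.86, 95% confidence interval -2.09 to 0.38), and Foxp3 from 1.03 to 3.03 against 0.583 to 8.63 CPM (0.94, SE 0.71). The checkpoint and regulatory T cell list held 0 called of 14 (median -0.02). At an unadjusted p below 0.05 stood 1 class II gene, 2 T and NK cell genes and 2 checkpoint genes, beside 3508 of all 17624 genes tested. In the T and NK cell list 1 gene was called lower by DESeq2, by limma-voom, and by edgeR without primary replicate 5 or 8. DESeq2 called 0 in the other 2 lists.

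The remaining lists of immune and host cells were mostly without calls. Of 18 neutrophil genes 1 was called lower, beside 2.4% of all genes, and DESeq2 called 1 higher and 1 lower. The edgeR call was Acod1, which encodes the itaconate enzyme of activated myeloid cells (at least 70.4 CPM in every allograft, 15.9 to 54.7 CPM in the primary tumours, -1.64, SE 0.33), a call lost without allograft 1 or 4. The rest of that list went both ways, with a median of 0.94 that was close to 0 without primary replicate 3, and the alarmin genes S100a8 and S100a9 ran from 0.695 to 183.5 and from 0.852 to 321 CPM in the primary tumours (1.21, SE 1.26, and 2.51, SE 1.44). Mast cell genes had the highest list median, 2.37 over 12 genes, and 0 were called by edgeR. DESeq2 called 6 higher, where it called 1112 of all 17624 genes higher. An unadjusted p below 0.05 in edgeR was reached by 8 of the 12, beside 3508 of all genes. The carboxypeptidase gene Cpa3 was at 1.03 to 9.03 CPM in the allografts and 1.06 to 70.4 CPM in the primary tumours (2.34, SE 1.04), and the protease gene Mcpt4 at 0.839 to 8.37 against 0.852 to 71.1 CPM (2.48, SE 1.12). No gene was called by edgeR in the dendritic cell (11 tested), B cell and plasma cell (10), chemokine (16), skeletal muscle fibre (20), myogenic (14), adipocyte (6), keratinocyte (3), red blood cell (5), cholesterol (20), hypoxia (18) and sex-linked (5) lists. Their medians ran from -1.31 in the myogenic list (-0.82 without allograft 2) to 0.54 in the B cell list. Without the 3 muscle-rich primary tumours the myogenic median was -2.95. That of skeletal muscle fibre went from 0.53 to -2.54 and that of the adipocyte list from 0.14 to -1.29. Most members at an unadjusted p below 0.05 were in the chemokine (7) and myogenic (5) lists, beside 3508 of all 17624 genes. The other 9 lists held 0 to 3 each. DESeq2 called 4 chemokine genes and 1 B cell and plasma cell gene higher and 2 myogenic genes lower. Without primary replicate 8, edgeR called 3 chemokine genes and 1 B cell and plasma cell gene, and without primary replicate 1, 3 myogenic genes. The muscle genes Myh4 and Acta1 had log2 fold changes of 1.32 (SE 1.72) and 0.82 (SE 1.40). The embryonic myosin Myh3 was at 0.401, 32.2, 25.98 and 7.64 CPM in the allografts and at 0 to 5.12 CPM in the primary tumours (log2 fold change -3.59, SE 1.08, adjusted p = 0.0771, edgeR), and was called with DESeq2, with muscle as a covariate and without primary replicate 1.

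Among structural lists, collagens held 1 call in each direction of 20 tested, beside 2.36% higher and 2.4% lower of all genes, and DESeq2 called 4 higher and 1 lower. Col8a1 was higher in primary tumours (1.79, SE 0.44) and Col12a1 lower (-2.03, SE 0.48), calls lost in 9 and 8 of 24 alternative fits, among them without allografts 1, 2 or 4 and without allografts 2, 3 or 4. There were 185, 192, 434 and 417 CPM of Col12a1 in the allografts against 23.9 to 175 CPM. Col1a1, of the main fibrillar collagen, ran from 584.6 to 9586 CPM in the allografts and from 1749 to 11060 CPM in the primary tumours (0.08, 95% confidence interval -1.33 to 1.48). Pmp22, a myelin protein gene, was the single called gene of 12 in the nerve list (44.6 to 49.9 against 73.8 to 124.4 CPM, 1.02, SE 0.16), beside 2.36% of all genes called higher, and 2 were called without primary replicate 8. Bone genes rested on a single tumour. Ibsp, a bone sialoprotein, stood at 561 CPM in allograft replicate 3, at 0.0516 to 1.602 CPM in the other allografts and at up to 0.362 CPM in the primary tumours. Dmp1 and Phex, also of bone, had 62.0 and 14.7 CPM there, with log2 fold changes of -4.62 (SE 1.04) and -2.004 (SE 0.51). The list counted 3 of 9 genes as called lower, beside 2.4% of all genes. DESeq2 and limma-voom called 0, and without allograft 3 all 3 calls were lost. The fitted log2 fold change of Ibsp, -10.48 (SE 1.99), rests on that tumour.

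**Figure D4:**
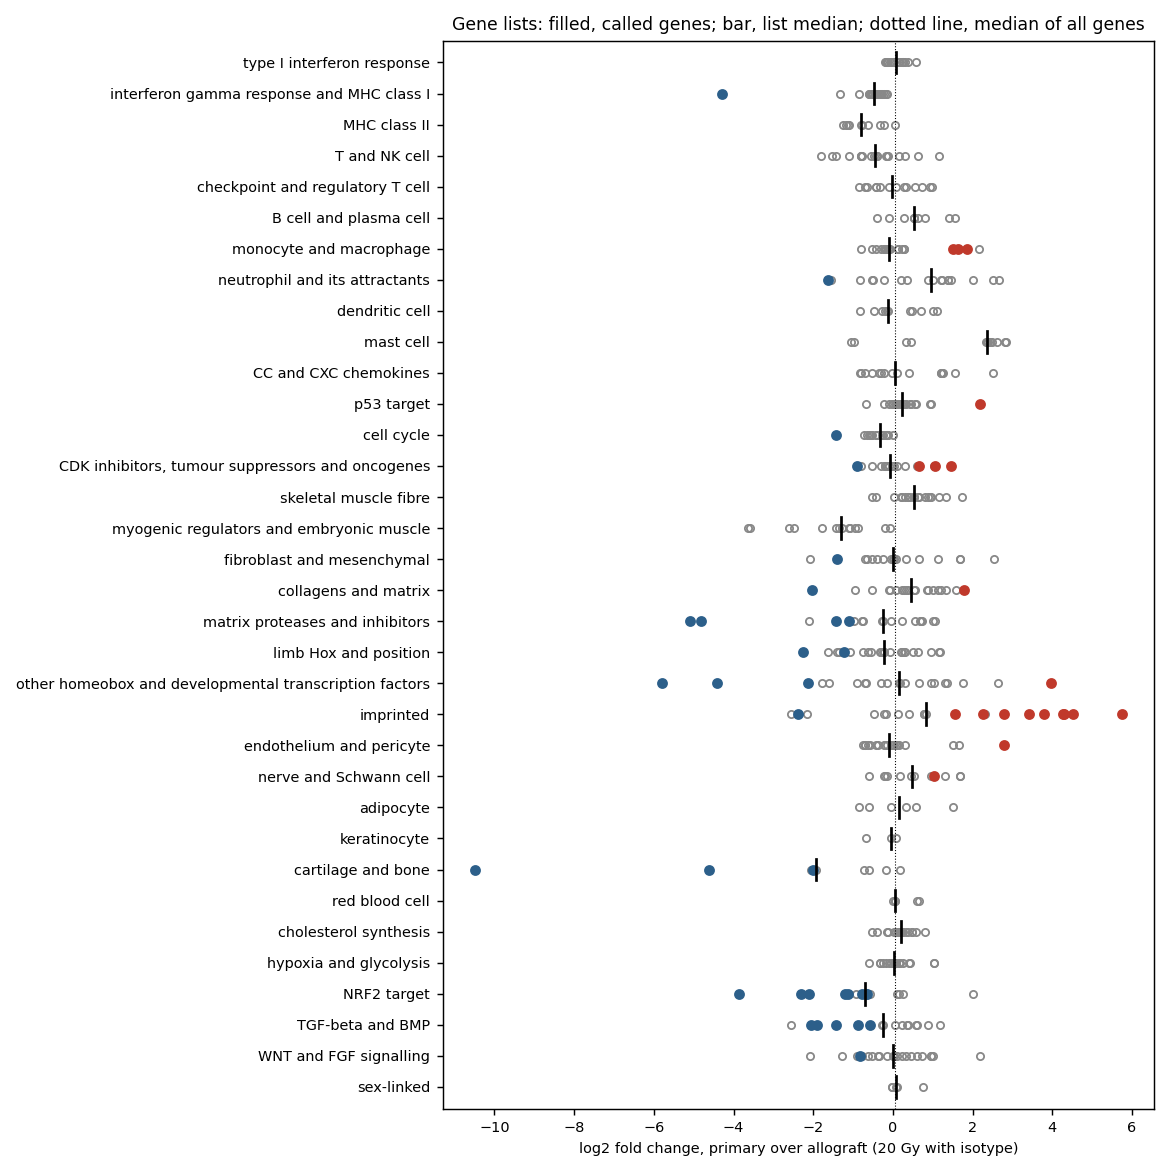
Log2 fold change, primary over allograft, of every tested member of the 34 gene lists (filled where called, red higher and blue lower in primary tumours; bar, list median; dotted line, median of all genes). The NRF2 list holds 8 called genes, all lower, and the imprinted list 9 called higher and 1 lower, while the type I interferon list holds none.

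Most genes called after 20 Gy had the same sign of difference without irradiation, and fewer than 50% of them were called there. The primary tumours and allografts at 0 Gy with isotype were other tumours than the irradiated ones, and 1738 of 17357 genes (10%) were called. Allografts of every arm were of line 402230, so agreement between arms is not independent on the allograft side. At 0 Gy the identifier in the titles starts with 5 for all 4 allografts and with 4 for all 8 primary tumours, so whatever that digit marks and the tumour kind cannot be told apart there, nor in the interaction that uses these tumours. After 20 Gy with isotype it starts with 4 for 3 of 4 allografts and 7 of 8 primary tumours, and with anti-PD-1 for 1 of 4 and 8 of 8. Of the 839 genes called after 20 Gy, 816 were tested at 0 Gy and 770 of them (94.4%) had the same sign, against 60.7% of all 17030 genes tested in both. The calls shared were 370, all of the same sign, which is 44.1% of the calls at 20 Gy and 21.3% of those at 0 Gy. Nqo1 had log2 fold changes of -3.85 (SE 0.22) after 20 Gy and -4.08 (SE 0.36) at 0 Gy, Rian of 4.52 and 4.65, Dlk1 of 5.75 and 5.84, and Sgce of 2.27 and 2.55. In the NRF2 list 9 of 16 genes were called lower at 0 Gy, beside 3.99% of all genes, and in the imprinted list 10 of 21 higher, beside 6.03%. Both lists were chosen with earlier results of these data known, so these counts are no separate support.

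Whether the difference between kinds changed with dose was tested as an interaction over the 24 isotype tumours. Of 18422 genes 0 were called by edgeR (smallest adjusted p 0.0822), 1903 had an unadjusted p below 0.05, and DESeq2 called 28. Mmp13 had a log2 fold change of -1.22 (SE 0.44) at 0 Gy and -4.82 (SE 0.44) after 20 Gy, a difference of -3.62 (SE 0.68, adjusted p = 0.14, edgeR). Plau moved from 0.77 to -1.43 (difference -2.22, SE 0.54, adjusted p = 0.351, edgeR), and Rnf183 from -0.53 to -3.52 (-3.01, SE 0.77, adjusted p = 0.351, edgeR). At 0 Gy 7 of 20 interferon gamma and MHC class I genes, 7 of 10 class II genes and 8 of 20 T and NK cell genes were called lower, beside 3.99% of all genes, where after 20 Gy 1, 0 and 0 were. For Cxcl9 the log2 fold change was -2.75 (SE 0.57) at 0 Gy and -0.53 (SE 0.46) after 20 Gy, and the difference of 2.20 (SE 0.80) had an adjusted p of 0.462 (edgeR). No named gene was called in the interaction by edgeR.

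With anti-PD-1 added to 20 Gy, the comparison of 8 primary tumours with 4 allografts called 1 of 17674 genes (0.00566%), with 2965 at an unadjusted p below 0.05. The gene was Gm17833, a processed pseudogene at 0.0245 to 0.151 CPM in the primary tumours and 0.607 to 1.89 CPM in the allografts, also called after 20 Gy with isotype (log2 fold changes -3.71, SE 0.40, and -4.03, SE 0.50). It was named after its value was seen, and its reads may come from a near-identical parent gene. It passed the expression filter through the allografts alone, where it is high, so its calls add no support. The direction was shared widely: of 809 genes called with isotype and tested here, 759 (93.8%) had the same sign, against 59.6% of all 17269 genes, with a median log2 fold change toward the call of 0.90 where it had been 1.59. The allografts here were again of line 402230. The tumours of this arm differed more among themselves: the common coefficient of variation was 0.541 against 0.444 in the isotype arm. Nqo1 was at 3.52 to 19.8 CPM in 6 primary tumours, at 140 and 92.3 CPM in the other 2, and at 33.4 CPM in allograft replicate 2 against 95.2 to 148 CPM in the other allografts. Its log2 fold change there was -1.40 (SE 0.90, adjusted p = 0.454, edgeR). Primary replicate 4 of this arm held 20360 CPM of Myh4 and 24.6 CPM of Cdkn2a, where the other 7 primary tumours held 392.4 to 1151 CPM of Cdkn2a. Without it 239 genes were called, and with all 48 tumours in the fit 1309. The part of muscle content in the low count was not tested.

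**Figure D5:**
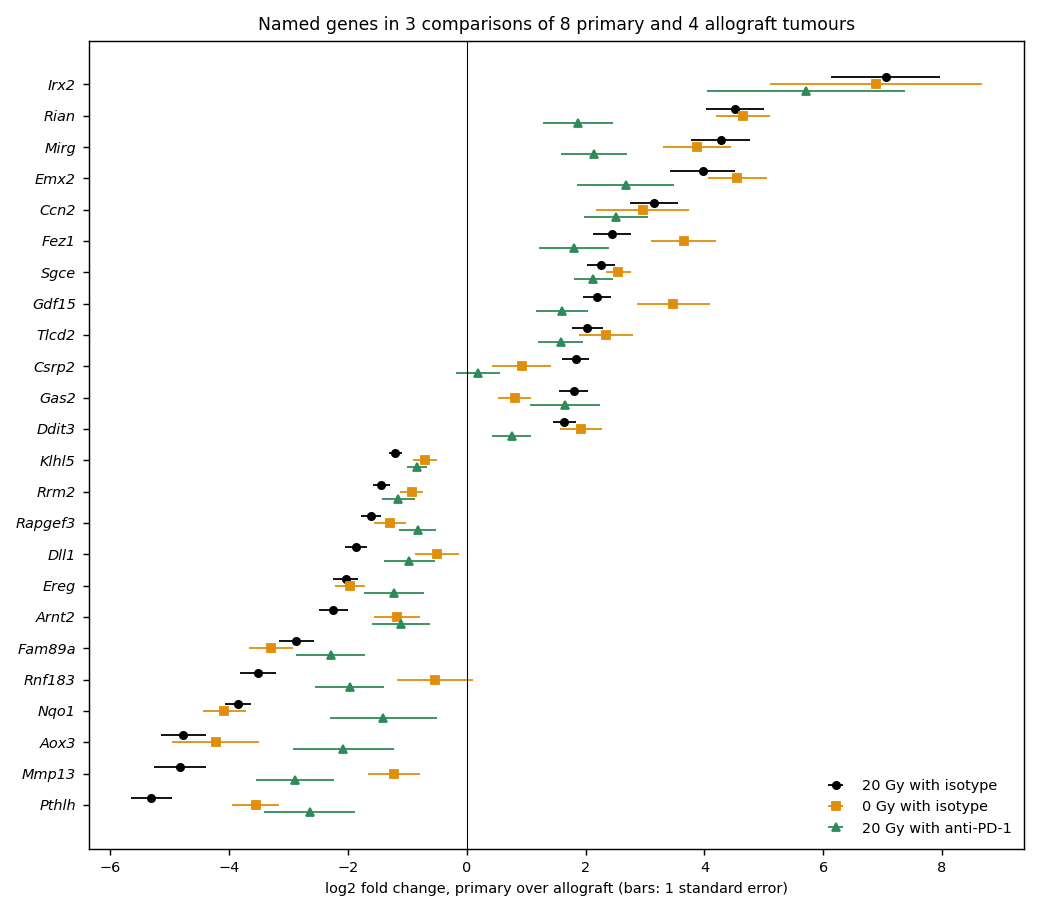
Log2 fold change, primary over allograft, with 1 standard error, for the 12 higher and 12 lower genes with the smallest p, after 20 Gy with isotype (black), at 0 Gy with isotype (orange) and after 20 Gy with anti-PD-1 (green). The genes were chosen on the black values. All 24 keep their direction in the other comparisons, and Mmp13 and Rnf183 lie closer to 0 at 0 Gy (-1.22 and -0.53) than after 20 Gy.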

How the data were processed

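Per the labels' protocols, tumours were taken forward at an RNA integrity number above 7, and stranded poly(A)-selected libraries were made. The deposited values are unnormalised read counts, whole numbers for 36854 Ensembl genes in 48 tumours. Per the submitters' processing notes, Trimmomatic 0.36, STAR and HTSeq were used with mm10. Strand handling and filters are not given in the sources used here. The table's name refers to a first run, so counts of any other run are not included. Columns of samples not listed numbered 0, and so did entries without a gene.

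GENCODE M21 (GRCm38) named 36796 genes. Genes were filtered with filterByExpr, scaled by TMM and tested with edgeR 4.0.16 (R 4.3.3) by the quasi-likelihood F test over the 12 tumours compared, or the 24 isotype tumours for the interaction, with Benjamini-Hochberg adjustment. SE is the log2 fold change over the square root of F. CPM is TMM-scaled over all 48 libraries. With 31.8 to 53.3 M counts per library, counting error weighs most on genes below 1 CPM, and reads without molecular identifiers are not independent molecules. Pairs of libraries within a group differed beyond sampling noise (34 pairs, ratio of chi-square to its degrees of freedom 86.5 to 464). Replicates were numbered in accession order. The labels do not say whether tumours shared cages or litters, so p-values measure the spread between these samples.

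The rule named the 12 higher and 12 lower called genes with the smallest p whose higher group averaged 5 CPM or more, without Gm and Rik names, and from 34 lists the first 4 genes and up to 4 with the smallest p. Of the 285 genes it names, the text describes a selection, made after values were seen, plus a few outside the rule, marked as such; counts of kept calls and of tumours standing apart cover the genes with a fold change in the text. Some genes of the lists are not reported here. Members and lists were chosen with earlier results of these data known. Alternatives were DESeq2 1.42.0, limma-voom 3.58.1, other scaling and filters, all 48 tumours in a fit, covariates for Xist, muscle and the identifier in the titles, a 2-fold threshold (glmTreat) and leaving out each tumour. A fit without the muscle-rich tumours was added after seeing the data.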

Additional observations from a re-analysis of the deposited data

Results flagged for a closer look

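A single tumour far from the others of its group was found in 24 of 242 groups of values, 9.92%, where chance gives about 1 in 20. Primary replicate 8 was involved 8 times: it was lowest in Pthlh (0.471 CPM, others 2.35 to 2.83), Plau (78.7 CPM, others 135.7 to 215), Fst (5.88 CPM, others 18.5 to 42.1) and Hoxc10 (0.875 CPM, others 7.85 to 32.6), and highest in Gclc (58.0 CPM, others 23.5 to 34.7), Dmrta2 (3.16 CPM, others up to 0.615), Dlx1 (15.4 CPM, others up to 0.77) and Dlx2 (28.3 CPM, others up to 4.09). Primary replicate 2 was highest in Tlcd2 (41.5 CPM), Emx2 (43.7 CPM) and Col1a1 (11060 CPM). Primary replicate 3 was highest in Mmp13 (31.3 CPM) and lowest in Lyve1 (4.56 CPM), and replicate 7 highest in Msx1 (7.12 CPM). Among the allografts, replicate 3 was highest in Dmp1 (62.0 CPM), Phex (14.7 CPM) and H2-Aa (2387 CPM) and lowest in Dlx2 (6.36 CPM), and replicate 1 highest in Cdk4 (239.8 CPM), Adgre1 (336 CPM) and S100a8 (33.0 CPM). Allograft replicate 4 was highest in Gclc (94.3 CPM) and lowest in Lyve1 (1.45 CPM), and replicate 2 was lowest in Xist (0.0736 CPM, others 85.7 to 177).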

How the results depend on the processing

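No paired analysis was possible because the labels give no replicate numbers, and the numbers used here only name tumours. The 839 genes called after 20 Gy with isotype (416 higher, 423 lower) became 1875 with DESeq2 (1112 higher, 763 lower), 312 among tumours whose identifier starts with 4 (190 lower), 120 in a test against a 2-fold change (62 and 58) and, in the fit added after seeing the data, 399 without the muscle-rich primary tumours (192 and 207). Leaving out each tumour gave 260 to 1150 calls, up to 603 higher and 159 to 547 lower. At 0 Gy DESeq2 called 2868, and leaving out each tumour gave 732 to 2187, with 973, 732 and 810 without allografts 1, 2 and 4. With anti-PD-1 the single call became 1005 with DESeq2, 0 at a mean of at least 1 CPM and 1309 with all 48 tumours, and 0 to 239 when a tumour was left out, the highest without primary replicate 4. The 0 interaction calls became 28 with DESeq2, 1 with all 48 tumours and 0 to 4 when a tumour was left out. The cause of these shifts was not tested, except that fewer samples entered the reduced fits. Of 73 called genes with a fold change in the text, 0 reversed in up to 24 alternatives each and 41 kept their call in every alternative that tested them, other than the 2-fold test, among them all 24 leading genes. Of the uncalled, 14 genes changed sign in at least 1 alternative, 56 values in all. Leaving out each tumour gave -0.0318 to 0.269 for Hmox1, -0.1646 to 0.0617 for Adgre1, -0.4711 to 2.02 for S100a8, -0.2234 to 2.08 for Myh4, -0.2851 to 1.53 for Acta1, -1.044 to 0.59 for Xist, -0.2753 to 0.209 for Pdgfra, -0.3433 to 1.15 for Col1a1, -0.6132 to 0.721 for Mmp9, -0.2527 to 0.0451 for Irf7, -0.0567 to 0.389 for Hoxa9, -0.0225 to 0.0782 for Yy1 and -0.0842 to 0.096 for Hsp90aa1. With limma-voom Hmox1 was at -0.029, S100a8 at -0.6449, Myh4 at -0.3813, Xist at -3.27, Pdgfra at -0.146, Dio3 at 0.0614 and Hsp90aa1 at -0.0296, and with DESeq2 S100a8 at -0.4397. Pdgfra was at -0.0075 without a filter, and Pdgfra, Xist, Yy1 and Hsp90aa1 were at -0.0311, -0.0013, -0.0022 and -0.0196 with all 48 tumours. Among tumours whose identifier starts with 4, Xist, Pdgfra and Col1a1 were at -0.1068, -0.268 and -0.4386. Pdgfra and Col1a1 were at -0.0091 and -0.0608 with the identifier as covariate (Hsp90aa1 at -0.0114) and at -0.3624 and -0.0319 with Xist. Without the muscle-rich tumours Myh4, Acta1 and Hsp90aa1 were at -2.79, -2.44 and -0.0617. Depth limits values below 1 CPM, as for Rtl1.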

Other observations

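Distal chromosome 10, which holds Ddit3, Csrp2 and Cdk4, stood highest when genes of at least 5 CPM were grouped in windows of 10 Mb, a pattern noticed in the data. In the windows 110 to 120 Mb (31 genes) and 120 to 130 Mb (83 genes), 90.3% and 84.3% of genes were higher in primary tumours, with median log2 fold changes of 0.34 and 0.35. They ranked second and first of 209 windows, whose medians ran from -0.15 to 0.35. The windows held 5 and 10 genes called higher and 0 called lower; of all genes tested, 55.7% lay above 0, 2.36% were called higher and 2.4% lower. At 0 Gy the medians were 0.39 and 0.28, at ranks 1 and 5, and with anti-PD-1 0.34 and 0.27, at ranks 2 and 5, in tumours not shared with the irradiated isotype groups. Allografts of every arm came from the same line 402230, so on their side these ranks are not independent.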
